A study of Mus musculus with 7899 samples.

Results

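The mitochondrial ribosomal protein genes were taken as every gene whose symbol begins with Mrpl or Mrps followed by a digit, the symbols given to proteins of the large and small subunit of the mitochondrial ribosome. The rule found 76 genes among the 21767 of the fullest count tables, 47 named Mrpl and 29 named Mrps. The Stat3 table holds 65 of them; Mrps7, Mrps9, Mrps12, Mrps14, Mrps16, Mrps21, Mrps36, Mrpl18, Mrpl35, Mrpl42 and Mrpl50 are not among its rows. That table holds 12792 genes and that of p300 holds 21177, and in each 1 gene with missing values was left out; genes beyond these are not analysed here. Symbols and proteins do not match throughout: the proteins of Mrps18a and Mrps30 are known to sit in the large subunit, and the protein of Mrps36 is known as a subunit of the 2-oxoglutarate dehydrogenase complex.

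Single sorted pancreatic β cells of female C57BL/6J mice, labelled as such by the submitters, went through Smart-seq3xpress, an RNA-seq protocol for cells sorted into plates that covers transcripts over their length. The reads of 7897 cells were summed over each group and replicate, which gave 100 libraries in 48 groups of 2 or 3. The time course, on standard diet, has G0, the gestation groups G3.5, G5.5 and G6.5 (named by day), then G8.5 to G18.5 in steps of 2 days, and P2, P7 and P14, days after birth, each with the letters L or NL, read here as lactating and not lactating. G0 was read as not pregnant; the labels do not spell out either reading. Knockout sets on standard diet have Acss2WT and Acss2KO at G0, G14.5 and G18.5, Stat3WT and Stat3KO at the same days, and p300WT and p300KO at G0 and G14.5. No driver or cell type of the deletions is named in the labels. The high-fat diet set has HFD_G0, HFD_G14.5 and HFD_P7NL, Acss2WT and Acss2KO at G0 and G14.5 on that diet, and Acss2WT at G14.5 on standard diet. Islets cultured for 4 days in medium with 20% human serum, normal (NS) or maternal (MS), received 5 µM A485 or 20 µM nifuroxazide, each beside the vehicle DMSO. A485 is an inhibitor of the acetyltransferases p300 and CBP, and nifuroxazide of STAT3 signalling.

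The mitochondrial ribosome translates the few proteins that mitochondrial DNA encodes, all of them core subunits of the respiratory chain and ATP synthase. Its RNAs come from mitochondrial DNA, whereas all of its proteins are encoded in the nucleus, made in the cytosol and imported. The particle thus depends on both genomes. In β cells the respiratory chain links glucose breakdown to ATP, the closure of ATP-sensitive potassium channels and insulin release. NRF1 and GABP, the latter an ETS-family factor, are the known activators of many nuclear genes for mitochondrial proteins.

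Libraries held 13273435 to 181405413 reads from 21 to 160 cells, of which 33.0% to 69.8% fell on the insulin genes Ins1 and Ins2. The members together took 26511 to 484509 reads per library, and 48 to 72 members had a read in the median cell of a library. Mrpl53 had so few reads that it passed the filter on low counts in the high-fat diet table alone; the other 75 members, or 64 in the Stat3 table, passed in the remaining tables. β-cell markers took 384940 to 729359 CPM (counts scaled to a common library size), while α-cell markers summed to 132 to 8875 CPM, δ-cell markers to 119 to 3960, hepatocyte markers to 5.57 to 707 and acinar markers to at most 444. The mean level of the targeted gene at G0 was lower in each knockout set without vanishing: Acss2 had 11.3 and 9.76 CPM in Acss2KO against 18.0 and 26.1 in Acss2WT, Ep300 had 15.9 and 11.9 in p300KO against 24.2 and 36.7 in p300WT, and Stat3 had 66.1 and 49.4 in Stat3KO against 65.9 and 70.8 in Stat3WT. The Stat3 levels overlap between the genotypes, and the labels do not say where in the gene each deletion lies, so reads outside the deleted part check nothing.

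Levels within the family were compared per gene length (RPKM, CPM divided by the gene's length in kilobases) at G0. The 75 measured members ranged from 2.10 to 137 RPKM with a median of 16.8 (quartiles 6.28 and 33.3). Mrps21 led with 137 ± 27.1 RPKM (SD, n = 2), followed by Mrps33 with 134 ± 20.0, Mrpl52 with 107 ± 6.81, Mrpl54 with 87.1 ± 16.2 and Mrpl42 with 77.7 ± 8.04. The levels of Mrps21 and Mrps33 do not differ beyond their spread, nor do those of Mrpl54 and Mrpl42. The lowest were Mrps25 with 2.10 ± 0.0736 RPKM, Mrpl19 with 2.80 ± 0.350, Mrps22 with 2.95 ± 1.21, Mrps5 with 3.36 ± 0.153 and Mrps2 with 3.45 ± 1.23. The 48 members of the large subunit had a median of 18.7 RPKM and the 26 of the small subunit one of 9.53. This order depends on the deposited gene lengths, which equal the annotated exonic bases for only 3 of the 76 members. By CPM, Mrps33 read 148 and Mrps21 97.9, and Mrps14, with 77.3 CPM, ranked 22 by RPKM. Levels differed widely by CPM too, from 6.61 for Mrps6 to 148 for Mrps33. For 69.8% of the annotated exonic bases of Mrps25 and 36.0% of those of Mrpl19, another gene lies on the opposite strand.

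**Figure D1:**
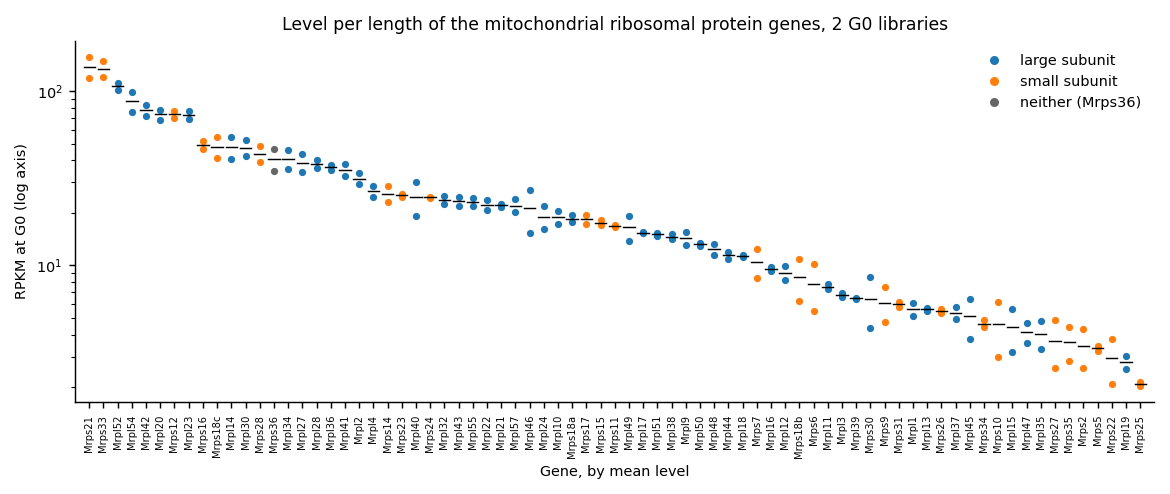
Level per length of the 75 measured members at G0 in the time course. Each point is 1 of 2 libraries, the bar is their mean, the vertical axis is RPKM on a log scale, and colours give the subunit of the protein; levels run from 137 for Mrps21 to 2.10 for Mrps25.

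Over the 16 stages of the time course, 15 of 75 members changed (edgeR's quasi-likelihood F test across the stages, Benjamini-Hochberg adjusted p under 0.05), against 17.4% of all 15373 genes tested, so the family's share lies near that of the genome. Mrpl17, a large-subunit protein near the peptide exit, had the lowest adjusted p (0.000426), followed by Mrpl42 (0.00117) and Mrps33 (0.00231). The others were Mrps14, Mrpl41, Mrpl48, Mrpl51, Mrpl54, Mrps36, Mrpl32, Mrpl18, Mrpl13, Mrps12, Mrpl52 and Mrpl23, with adjusted p values from 0.0078 for Mrps14 to 0.0471 for Mrpl23. Leaving out 1 of the 35 libraries in turn left between 9 and 15 members called, with 9 without G14.5 replicate 1 or G10.5 replicate 2; Mrpl17, Mrpl42, Mrps33, Mrps14, Mrpl41, Mrpl48 and Mrpl51 kept their call in all 35 such fits. Most members varied little: the highest stage mean was a median of 1.49 times the lowest, and 2 members passed 2-fold.

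Summed over the family, the members took 0.543% and 0.513% of the reads outside the insulin genes in the G0 libraries. The sum stood at 0.605% and 0.580% at G8.5 and at 0.608% and 0.573% at G16.5, above both G0 libraries, whereas P14L had 0.486%, 0.510% and 0.493% and P14NL 0.488% and 0.500%, below both. At G14.5 it was 0.554%, 0.563% and 0.568%. In such sums, fewer cells of a type and less RNA per cell cannot be told apart. With 2 or 3 libraries per stage the sums are given as a description, and G8.5 is also the stage at which hepatocyte markers stood at 597 and 416 CPM, against 30.0 and 41.4 at G0; their part in the result was not tested.

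Every stage was compared with the same 2 G0 libraries, so the comparisons share their controls. At G14.5, near the peak of β-cell expansion in the mouse, 7 of 75 members changed, against 10.1% of all genes. All 7 rose (5.96% of all genes rose) and none fell (4.15% of all genes fell). By unadjusted p under 0.05, 17 members (22.7%) passed, against 23.5% of all genes. DESeq2 called 9 members, 7 higher and 2 lower, beside 2037 of 13865 genes, and limma 7, 5 higher and 2 lower. The median log2 fold change of the members was 0.12 and that of all genes 0.01, with 50 of 75 members above 0. The median moved from 0.02 to 0.15 across the other settings. The 7 were Mrpl42, Mrpl17, Mrpl18, Mrpl44, Mrpl32 and Mrpl36 of the large subunit, to which 48 of the 75 belong, and Mrps14 of the small subunit. The median over the large subunit was 0.10 and that over the small subunit 0.22.

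Mrpl42 read 48.0 and 55.6 CPM in the G0 libraries and 98.2, 96.4 and 113 CPM at G14.5. Every G14.5 library lay above every G0 library. The log2 fold change was 0.99 ± 0.16 (SE), with an adjusted p of 0.000106 by edgeR. Mrpl17 read 58.8 and 59.6 CPM at G0 and 84.8, 109.8 and 103 CPM at G14.5. The groups did not overlap either, and the log2 fold change was 0.75 ± 0.13 (adjusted p = 0.000267, edgeR). Both genes kept their call in each of the 7 other settings and in each of the 5 fits without 1 library, with adjusted p values of at most 0.0111 for Mrpl42 and 0.0101 for Mrpl17 in the latter.

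Mrpl18, a protein implicated in the import of 5S RNA into mitochondria, read 13.6 and 14.1 CPM at G0 and 23.4, 17.1 and 28.4 at G14.5, and its log2 fold change was 0.73 ± 0.20. Mrpl44, a protein with an RNase III-like fold, read 15.6 and 17.0 CPM at G0 and 22.2, 22.7 and 29.5 at G14.5, with a log2 fold change of 0.61 ± 0.19. In neither gene did the groups overlap. Mrpl32, whose protein is matured by the m-AAA protease before assembly, read 17.2 and 19.3 CPM at G0 and 31.1, 26.2 and 24.5 at G14.5 (log2 fold change 0.58 ± 0.15). Mrpl36 read 33.8 and 31.8 CPM at G0 and 44.4, 40.0 and 59.8 at G14.5, where the third library lay apart from the others (0.55 ± 0.16). Mrps14 read 85.0 and 69.7 CPM at G0 and 122, 93.3 and 111 at G14.5 (0.49 ± 0.14). The adjusted p values of these 5 ran from 0.0116 for Mrpl32 to 0.0343 for Mrpl44. Each of the 5 lost its call in at least 2 of the 5 fits without 1 library. Adjusted p reached 0.106 for Mrpl18 and 0.191 for Mrpl36 without G14.5 replicate 3, 0.13 for Mrpl32 and 0.203 for Mrpl44 without G0 replicate 1, and 0.263 for Mrps14 without G0 replicate 2. Without G14.5 replicate 3, or without G0 replicate 2, 3 members were called at G14.5.

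Other members of known role did not pass the test at G14.5. Mrpl12 and Mrpl10, which form the stalk that recruits translation factors, had log2 fold changes of 0.13 ± 0.18 and 0.01 ± 0.17; Mrpl11, at the base of the stalk, had 0.22 ± 0.16. Mrps12, the homologue of the decoding-site protein S12 of bacteria, had 0.29 ± 0.21, and Mrps27, an RNA-binding PPR protein, 0.29 ± 0.30. The S18 paralogues Mrps18a, Mrps18b and Mrps18c had 0.11 ± 0.13, -0.35 ± 0.31 and -0.00 ± 0.17. Mrps30 had -0.13 ± 0.26 and Mrps36 0.31 ± 0.17. The lowest value of the family was that of Mrpl19, with 15.2 and 12.7 CPM at G0 and lower levels in all 3 G14.5 libraries, down to 7.98 CPM (log2 fold change -0.60 ± 0.21, adjusted p = 0.0657 by edgeR and 0.032 by DESeq2).

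The sequences before the start sites of Mrpl17, Mrps14 and Mrpl44, which rose at G14.5 and hold a match to the core letters of NRF1 sites, are shown with those of Mrpl42, which rose most, and Mrps33, which stood lower at most stages; the last pair hold no match. They come from RefSeq on GRCm38.p6, run 5′ to 3′ on the gene's strand, and end before the earlier of the RefSeq and GENCODE starts; capitals mark matches.
Mrpl17 (chr7:105811100-105811337, minus strand): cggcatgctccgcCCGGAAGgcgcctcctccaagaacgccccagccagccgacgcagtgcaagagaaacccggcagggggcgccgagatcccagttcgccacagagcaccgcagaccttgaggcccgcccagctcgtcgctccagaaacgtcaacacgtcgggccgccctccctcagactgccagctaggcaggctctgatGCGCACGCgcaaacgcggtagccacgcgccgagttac
Mrps14 (chr1:160194965-160195214, plus strand): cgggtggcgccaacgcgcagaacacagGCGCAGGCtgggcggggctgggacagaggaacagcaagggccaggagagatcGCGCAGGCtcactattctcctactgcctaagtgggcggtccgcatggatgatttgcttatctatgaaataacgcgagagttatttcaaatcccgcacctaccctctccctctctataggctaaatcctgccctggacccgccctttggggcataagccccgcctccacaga
Mrpl44 (chr1:79775768-79776017, plus strand): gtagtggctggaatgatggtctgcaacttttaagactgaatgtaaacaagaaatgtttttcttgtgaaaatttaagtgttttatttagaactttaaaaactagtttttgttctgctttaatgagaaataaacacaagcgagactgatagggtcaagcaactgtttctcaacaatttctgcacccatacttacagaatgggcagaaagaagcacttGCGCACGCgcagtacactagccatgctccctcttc
Mrpl42 (chr10:95501950-95502199, minus strand): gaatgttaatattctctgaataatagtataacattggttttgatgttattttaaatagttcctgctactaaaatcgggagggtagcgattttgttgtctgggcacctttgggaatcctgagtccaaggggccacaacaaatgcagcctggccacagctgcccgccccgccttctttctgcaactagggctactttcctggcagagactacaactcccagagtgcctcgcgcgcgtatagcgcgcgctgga
Mrps33 (chr6:39810989-39811186, minus strand): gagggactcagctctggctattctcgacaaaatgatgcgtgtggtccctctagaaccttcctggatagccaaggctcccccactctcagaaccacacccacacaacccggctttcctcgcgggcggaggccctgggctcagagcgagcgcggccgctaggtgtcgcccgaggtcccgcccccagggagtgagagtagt

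Letters were searched on both strands of the 250 bases before the RefSeq start, where the table gives a start for 67 of the 76 members (not for Mrpl4, Mrpl13, Mrpl15, Mrpl19, Mrpl38, Mrpl54, Mrps28, Mrps34 and Mrps35). The NRF1 core GCGCANGC was in the windows of 17 of 67 members (25.4%) and in 8.35% of the 27025 promoters of the table. The ETS core CCGGAAG, bound by GABP, was in 17 of 67 (25.4%) against 7.14%, and AAGATGGC, the core of YY1 sites, in 4 of 67 (5.97%) against 1.58%. Matches can overlap and are counted for each motif. Mrpl17 held 2 NRF1 cores, which begin 49 and 11 bases before the start, and 1 ETS core, which begins 237 bases before it; the second NRF1 core lies past the printed stretch. Mrps14 held NRF1 cores that begin 223 and 171 bases before its start, and Mrpl44 one at 35 bases. Mrpl32, which rose too, held 5 NRF1 cores, the most of the 67, which begin 87 to 22 bases before its RefSeq start; these lie in the last 128 bases of its window, past the GENCODE start, and are not printed. Mrpl18, Mrpl36 and Mrpl42, which rose at G14.5 as well, held 0 NRF1 cores. A match is a run of letters and not a measured site. Whether matches go with the rise was not tested.

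The other days of gestation were compared in the same way. At G3.5 and at G5.5, 0 of 75 members changed by edgeR (0.579% and 1.57% of all genes), with 6 and 14 members at an unadjusted p under 0.05; DESeq2 called 1 and 2, and limma 1 and 2. At G6.5 it was 3 of 75 (1.65% of all genes), Mrpl17 higher (log2 fold change 0.56 ± 0.14) and Mrpl52 and Mrpl23 lower (-0.56 ± 0.14 and -0.53 ± 0.13). At G8.5, 6 of 75 changed (5.79% of all genes): Mrps2, Mrpl44, Mrps12, Mrpl41, Mrpl42 and Mrpl17, with log2 fold changes from 0.56 for Mrpl17 to 0.95 for Mrps2. At G10.5, 3 of 75 changed (2.76%), Mrps33, Mrpl13 and Mrpl48, all lower, from -0.70 to -0.54. At G12.5, 5 of 75 changed (5.03%), Mrpl44, Mrpl42, Mrpl4 and Mrpl17 higher, from 0.50 to 0.68, and Mrps33 lower (-0.49 ± 0.15). At G16.5, 6 of 75 changed (7.25%), and at G18.5, 2 of 75 (4.77%), namely Mrpl42 (0.69 ± 0.16) and Mrpl17 (0.65 ± 0.13). Without 1 library in turn, 0 or 1 member was called at G6.5, 1 to 3 at G8.5, 0 to 2 at G10.5, 1 at G12.5, 2 to 5 at G16.5 and 1 to 3 at G18.5.

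The member median was highest at G16.5 (0.26, with 58 of 75 above 0, against 0.00 for all genes) and G8.5 (0.24, also 58 of 75). Those medians stayed between 0.18 and 0.26 at G16.5 and between 0.15 and 0.23 at G8.5 under the other settings. At G16.5 Mrpl17 read 100.5 and 115 CPM, its highest stage, with a log2 fold change of 0.87 ± 0.14 and an adjusted p of 0.000156 by edgeR; it kept the call in all 4 fits without 1 library. Mrps12 read 132 and 87.2 CPM at G16.5 (0.76 ± 0.23) and 127 and 108 at G8.5 (0.86 ± 0.23), against 62.0 and 67.5 at G0; its calls were lost without replicate 1 of the stage, at adjusted p values of 0.425 and 0.161, and without either G0 library.

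**Figure D2:**
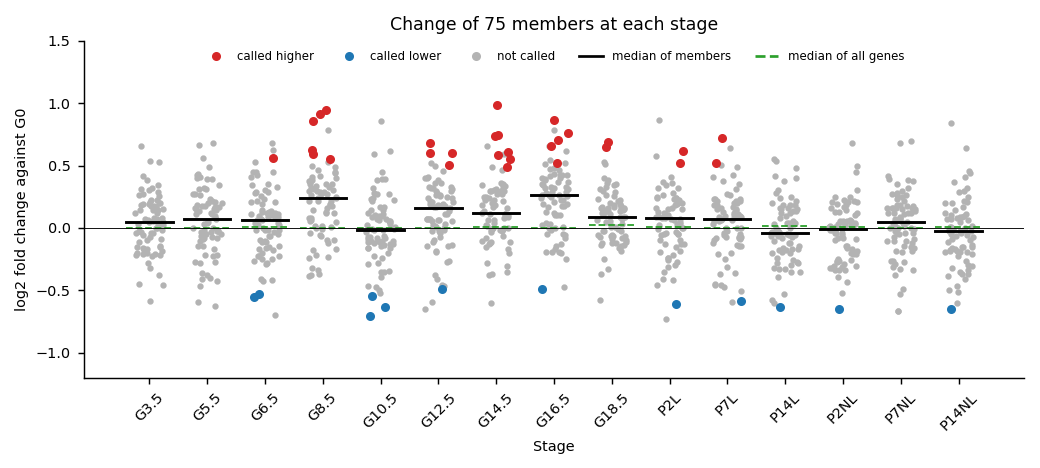
Log2 fold change of each of the 75 members against G0 at each later stage, with the same 2 G0 libraries in every comparison. Red and blue points passed the test, solid lines are member medians and dashed lines are medians of all genes tested; the member median is highest at G16.5 (0.26) and G8.5 (0.24).

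After birth, P2L had 3 of 75 members changed (2.61% of all genes), P7L 3 (3.35%) and P14L 1 (3.43%). Mrpl17 was still higher at P2L (82.0 and 87.5 CPM) and P7L (84.9 and 85.1 CPM), with log2 fold changes of 0.52 ± 0.14 at both, and at P14L it read 74.9 to 81.2 CPM. Both calls of Mrpl17 were lost in each of the 4 fits without 1 library. Among the NL groups, P2NL had 1 of 75 changed (0.572%), P7NL 0 (0.462%) and P14NL 1 (0.28%). At P7NL 9 members (12%) had an unadjusted p under 0.05, against 11.5% of all genes, and DESeq2 and limma called 0. With the days pooled, Mrpl17 read 63.6 to 69.3 CPM in the 6 NL libraries and 74.9 to 87.5 CPM in the 7 L libraries. This gene was picked after its values were seen. How many of all genes separate in this way was not counted, so no effect of lactation is read from it. Tested directly at each day, L against NL gave 0 of 75 members by edgeR at day 2 (0.124% of all genes), day 7 (0.839%) and day 14 (0.722%). Of the members, 4, 2 and 2 (5.33%, 2.67% and 2.67%) had an unadjusted p under 0.05, against 4.91%, 7.29% and 9.23% of all genes. DESeq2 and limma called 0 at each day.

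Mrps33, a small-subunit protein without a bacterial counterpart and, per gene length at G0, the second most abundant message of the family, went the other way. It read 164 and 133 CPM at G0 and 83.6 to 156 CPM in the later libraries. Both G0 libraries lay above every library of the stages called. Relative to G0 it fell at G10.5, G12.5, G16.5, P2L, P14L, P2NL and P14NL, with log2 fold changes from -0.70 ± 0.15 at G10.5 to -0.49 ± 0.15 at G12.5. All 7 calls use the same 2 G0 libraries, and none of the 7 was kept without G0 replicate 1, the highest library, where adjusted p ran from 0.0975 to 0.345. At G14.5 the value was -0.28 ± 0.13 (adjusted p = 0.189, edgeR), and Mrps33 was called there in 2 of the 7 other settings.

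**Figure D3:**
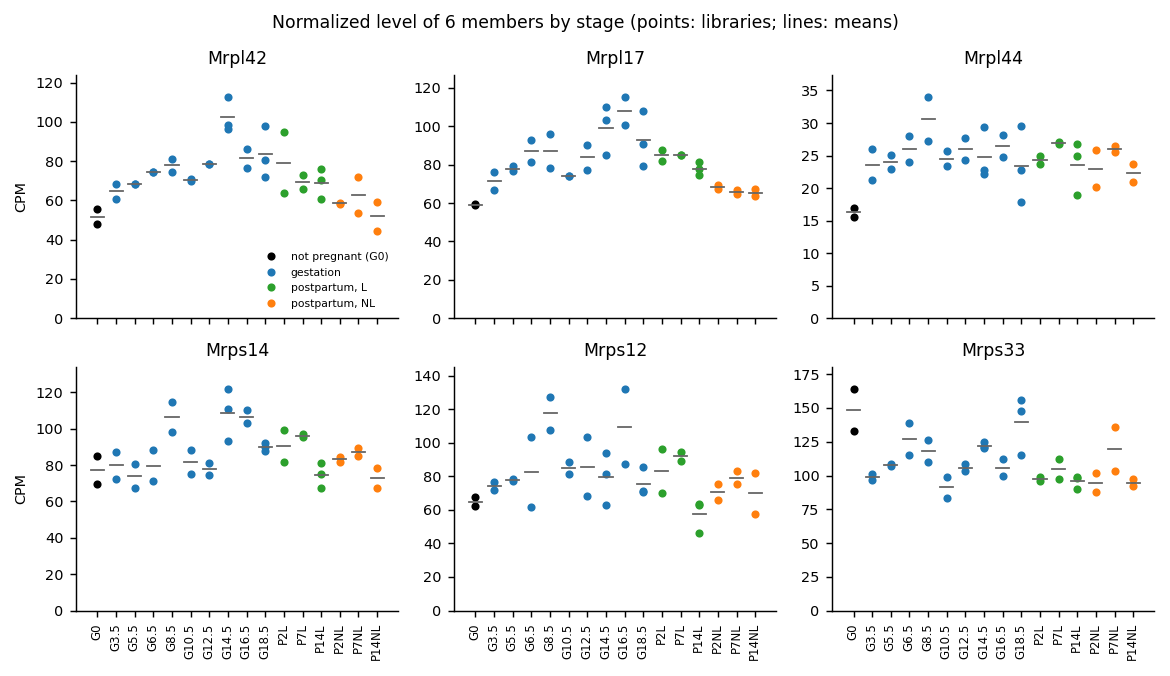
Normalized level (CPM, TMM library sizes) of Mrpl42, Mrpl17, Mrpl44, Mrps14, Mrps12 and Mrps33 by stage. Points are libraries, lines are stage means and axes start at 0; Mrpl42 lies highest at G14.5 and Mrpl17 at G16.5, and Mrps33 is highest in a G0 library (164 CPM).

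The contrast of G14.5 with G0 was measured again in mice without a knockout in 5 further sets, each with its own G0 libraries. Acss2WT had 2 of 75 members changed (2.92% of all genes), p300WT 3 of 75 (2.15%), HFD 1 of 76 (1.95%), HFD Acss2WT 0 of 76 (1.93%) and Stat3WT 0 of 64 (1.74%), by edgeR. Members with an unadjusted p under 0.05 numbered 9 in Acss2WT (12%), 26 in p300WT (34.7%) and 14 in HFD (18.4%). The shares of all genes there were 15.3%, 17.7% and 15.4%. In HFD Acss2WT and Stat3WT, 9 and 6 members (11.8% and 9.38%) had such a p, against 14.1% and 14.3% of all genes. DESeq2 called 2 and 1, and limma called 0 in HFD Acss2WT. Mrpl42 rose in Acss2WT, from 38.7 and 46.9 CPM to 69.6 and 74.5, with a log2 fold change of 0.75 ± 0.16. It rose in p300WT as well, from 53.7 and 54.8 CPM to 104 and 87.4 (0.82 ± 0.18). On high-fat diet it read 67.2 and 63.1 CPM at G0 and 72.9, 81.0 and 82.8 at G14.5, and the value of 0.28 ± 0.18 did not pass the test. The groups did not overlap in any of these sets; in HFD Acss2WT they also did not, with 48.9 and 74.6 CPM against 85.6 and 76.8 (0.40 ± 0.20, adjusted p = 0.383).

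Mrpl17 had values above 0 in all 6 sets, from 0.37 ± 0.15 on high-fat diet to 0.77 ± 0.19 in Stat3WT. In Stat3WT it read 54.9 and 58.8 CPM at G0 and 95.8 and 97.5 at G14.5. It passed the test in the time course and in Acss2WT (0.70 ± 0.17, adjusted p = 0.0372) and missed it in Stat3WT (0.0524), HFD Acss2WT (0.0535), p300WT (0.0954) and HFD (0.246). Its p300WT libraries read 55.9 and 57.0 CPM at G0 and 88.7 and 84.3 at G14.5, without overlap. By DESeq2 it passed in Stat3WT, p300WT and HFD Acss2WT too (adjusted p = 0.00471, 0.0169 and 0.00819). The Acss2WT call of Mrpl17 was lost in each of the 4 fits without 1 library (adjusted p up to 0.318). Those of Mrpl42 were lost in 2 of 4 such fits in Acss2WT (up to 0.231) and in 3 of 4 in p300WT (up to 0.171).

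Of the other members that rose in the time course, Mrps14 and Mrpl18 had values above 0 in the 5 sets that measured them. These ran from 0.33 to 0.72 and from 0.27 to 0.73. Among these sets without a knockout, neither passed the edgeR test outside the time course. Mrpl32 was above 0 in 5 of 6 sets, with -0.26 ± 0.25 on high-fat diet. Mrpl36 was above 0 in all 6 and rose in p300WT (0.96 ± 0.21), as did Mrpl54 (0.81 ± 0.18); both p300WT calls were lost in 3 of the 4 fits without 1 library (adjusted p up to 0.235 and 0.179). On high-fat diet Mrpl36 had 0.09 ± 0.20. Mrpl57, a small protein of the large subunit, rose on high-fat diet, from 51.5 and 41.3 CPM to 75.8, 66.7 and 84.0 (0.70 ± 0.16); with the replicate number as a block its adjusted p was 0.163, and it was 0.524 without HFD_G0 replicate 2, with the call lost in 4 of the 5 fits without 1 library. Mrpl44 was above 0 in 3 of 6 sets, the time course, HFD and HFD Acss2WT, and was called in the time course alone. It had -0.06 ± 0.18 in Acss2WT, -0.07 ± 0.25 in Stat3WT and -0.72 ± 0.22 in p300WT, none past the test. Mrps33 was above 0 in 3 of 6 sets, Stat3WT (0.04 ± 0.18), p300WT (0.56 ± 0.21) and HFD Acss2WT. It had -0.05 ± 0.27 in Acss2WT and -0.32 ± 0.21 on high-fat diet, and passed the test in no set. Over the 5 sets that measured all 75, 22 of 75 members had a fold change above 0 in all 5, against 13.0% of the 13182 genes tested in all 5, and 0 members had one below 0 in all 5, against 10.8%; the counts were 20 to 22 and 0 under 5 other settings.

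**Figure D4:**
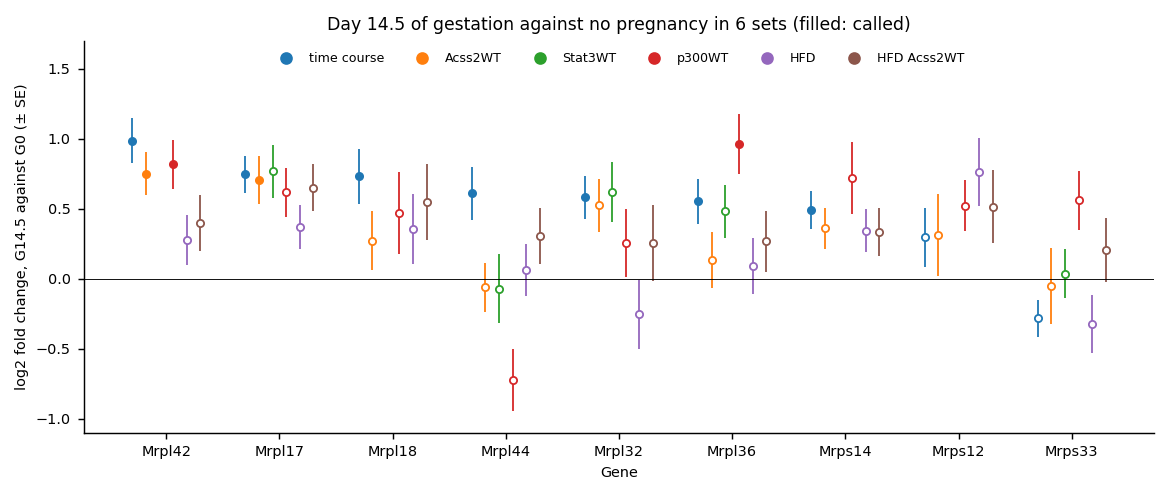
Log2 fold change of G14.5 against G0 (± SE) of 9 members in 6 sets of libraries, each with its own G0 group. Filled points passed the test; Mrpl17 lies above 0 in all 6 sets and Mrpl42 in the 5 that measured it, whereas Mrpl44 and Mrps33 lie on both sides of 0.

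In Acss2KO mice, a knockout of the acetyl-CoA synthetase of cytosol and nucleus, 7 of 75 members rose from G0 to G14.5 (2.86% of all genes rose and 4.35% changed). They were Mrpl17 (1.00 ± 0.17), Mrps36 (0.86 ± 0.18), Mrpl34 (0.83 ± 0.19), Mrpl18 (0.82 ± 0.21), Mrpl54 (0.73 ± 0.18), Mrps14 (0.72 ± 0.15) and Mrpl42 (0.67 ± 0.16). Mrpl17 read 44.4 and 48.3 CPM at G0 and 92.1 and 93.1 at G14.5 in the knockout. By unadjusted p under 0.05, 28 members (37.3%) passed, against 18.2% of all genes. No share of all genes is set beside the counts that follow from DESeq2 and from the unfiltered fit. DESeq2 called 15 members and the fit without a filter on low counts 18, whereas 1 or 2 members were called in the 4 fits without 1 library. Mrpl17 kept its call in 3 of these fits, Mrps14 in 1 and the other 5 in none. The member median was 0.30, with 69 of 75 above 0, beside 0.09 and 51 of 75 in Acss2WT. The Acss2WT median was -0.05 without G14.5_Acss2WT replicate 1 and 0.24 without replicate 2. The difference between the responses was tested as an interaction, and 0 of 75 members passed by edgeR (0.0213% of all genes). By unadjusted p under 0.05, 7 (9.33%) passed, against 6.08% of all genes, and DESeq2 and limma called 0.

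Acss2KO against Acss2WT gave 0 of 75 members by edgeR at G0 (0.00711% of all genes), at G14.5 (0.0213%) and at G18.5 (0.149%). Unadjusted p values under 0.05 numbered 1, 16 and 22, or 1.33%, 21.3% and 29.3% of members. The share of all genes was 2.67% at G0, 10.9% at G18.5 and between these at G14.5. The members' share was thus below that of all genes at G0 and above it at G14.5 and G18.5. DESeq2 called 0, 4 and 5 members, beside 6 of 14057, 166 of 13511 and 356 of 5881 genes. Limma called 0 members at each. The member median was 0.26 at G14.5, with 64 of 75 above 0, and -0.32 at G18.5, with 11 of 75 above 0. The G14.5 sums were 0.600% and 0.611% of the reads outside insulin in Acss2KO and 0.535% and 0.467% in Acss2WT. At G18.5 they were 0.473% and 0.526% in Acss2KO and 0.542% and 0.661% in Acss2WT. The library G18.5_Acss2WT replicate 2 stood apart, with 69.8% of its reads on the insulin genes against 55.3% to 62.7% in the rest of the table, and Mrps33 at 208 CPM against 73.1 to 107 in the other 11 libraries; without it the G18.5 median was -0.15.

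In p300KO mice, 1 of 75 members changed from G0 to G14.5 (3.27% of all genes): Mrpl4 fell from 55.8 and 60.8 CPM to 31.2 and 27.6 (-0.99 ± 0.22). That call was lost in each of the 4 fits without 1 library (adjusted p from 0.122 to 0.229). Against p300WT at G0, 1 of 75 differed (1.54% of all genes), and it was Mrps12, with 129 and 105 CPM in p300KO and 51.4 and 52.9 in p300WT (1.16 ± 0.18, adjusted p = 0.00902 by edgeR). The knockout libraries held at least 105 CPM and the wild-type ones at most 52.9. The call was lost without G0_p300KO replicate 1 (adjusted p = 0.107) and kept in the other 3 such fits. At G0 63 of 75 members lay above 0 with a median of 0.32, which was 0.20 without G0_p300WT replicate 1, and the sums were 0.583% and 0.587% in p300KO against 0.457% and 0.488% in p300WT. The insulin genes took 53.5% and 53.2% of reads in these p300KO libraries and 58.2% and 64.0% in p300WT; their part in the result was not tested. At G14.5 p300KO against p300WT gave 0 of 75 by edgeR (0% of all genes) and 0 by DESeq2, and Mrps12 read 102 and 88.3 CPM beside 82.7 and 66.8. There 5 members (6.67%) had an unadjusted p under 0.05, against 9.89% of all genes.

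The median response to G14.5 was 0.23 in p300WT and -0.16 in p300KO. The test of the difference in response gave 0 of 75 members by edgeR (0.0668% of all genes) and 2 by DESeq2. By unadjusted p under 0.05, 12 (16%) passed, against 10.4% of all genes. Mrpl4 and Mrpl36 had the lowest adjusted p values, 0.209 and 0.214, and were chosen after their values were seen. Mrpl4 read 31.2 and 43.7 CPM at G0 and 50.7 and 40.2 at G14.5 in p300WT, which overlap, and its difference in response was -1.26 ± 0.30. Mrpl36 read 28.0 and 25.4 CPM at G0 and 62.0 and 42.0 at G14.5 in p300WT, and 48.7 and 45.2 CPM against 38.6 and 39.8 in p300KO; its difference in response was -1.22 ± 0.30. Without 1 library in turn, the median of the p300WT response ran from 0.05 to 0.42.

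Stat3KO gave 0 of 64 members in every comparison by edgeR: G14.5 against G0 within Stat3KO (1.7% of all genes), Stat3KO against Stat3WT at G0 (0%), G14.5 (0.0098%) and G18.5 (0.0196%), and the difference in the G14.5 response (0%). Unadjusted p values under 0.05 numbered 3, 2, 1, 4 and 3, and DESeq2 called 0 in each. The unadjusted shares were 4.69%, 3.12%, 1.56%, 6.25% and 4.69% of members. Those of all genes were 13.9%, 8.13%, 8.57%, 4.97% and 7.93%. Mrpl17 read 51.6 and 70.1 CPM at G0 and 96.2 and 75.5 at G14.5 in Stat3KO, and was not called. The member sums were 0.462% and 0.471% in Stat3KO and 0.451% and 0.450% in Stat3WT at G0, over the 65 members in that table.

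On high-fat diet, HFD_P7NL against HFD_G0 gave 0 of 76 members by edgeR (0% of all genes) and 0 by DESeq2 and limma. By unadjusted p under 0.05, 4 (5.26%) passed, against 5.38% of all genes. Mrpl17 read 54.3 and 52.9 CPM in HFD_P7NL and 80.9 and 67.8 in HFD_G0, and was not called. High-fat against standard diet at G14.5 in Acss2WT also gave 0 of 76 (0.213%; 11 at an unadjusted p under 0.05, 1 by DESeq2 and 0 by limma). Mrpl17 read 111 and 115 CPM on high-fat and 79.0 and 81.0 CPM on standard diet in that comparison, and did not pass the edgeR test. Acss2KO against Acss2WT on high-fat diet gave 0 of 76 at G0 (0%; 6 unadjusted, 1 by DESeq2 and 0 by limma) and 0 of 76 at G14.5 (0.0638%; 6 unadjusted, 0 by DESeq2 and limma). The 6 members unadjusted at each day (7.89%) stood beside 7.75% and 8.47% of all genes. Mrpl17 was not called. It read 41.0 and 50.8 CPM in HFD_G0_Acss2KO, below both HFD_G0_Acss2WT libraries, of which the higher read 79.5.

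In cultured islets none of the 6 comparisons called a member by edgeR. A485 against vehicle gave 0 of 75 in normal serum (2.57% of all genes; 7 at an unadjusted p under 0.05, 1 by DESeq2 and 0 by limma) and 0 of 75 in maternal serum (3.3%; 4 unadjusted, 0 by DESeq2 and 1 by limma). Maternal against normal serum with vehicle gave 0 of 75 (0.657%; 6 unadjusted, 0 by DESeq2 and limma). Nifuroxazide gave 0 of 75 in normal serum (1.99%; 13 unadjusted, 5 by DESeq2 and 2 by limma) and 0 of 75 in maternal serum (0.697%; 3 unadjusted, 0 by DESeq2 and limma). In that set maternal against normal serum gave 0 of 75 (1.02%), with 2 unadjusted and 0 by DESeq2 and limma. The unadjusted shares of members in these 6 comparisons, in the order given, were 9.33%, 5.33%, 8%, 17.3%, 4% and 2.67%. Those of all genes were 17.4%, 17.8%, 12%, 15.3%, 9.91% and 9.67%.

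Mrpl42 read 66.4 and 66.0 CPM with vehicle and 59.0 and 60.1 with A485 in normal serum, and in maternal serum 65.5 and 77.2 against 52.2 and 70.4. Mrpl17 read 66.0 and 71.0 CPM with vehicle in normal serum and 77.0 and 102 CPM in maternal serum of the A485 set. Mrpl17 was not called in that comparison. Its A485 libraries in maternal serum read 58.7 and 89.6. In the nifuroxazide table Mrpl17 read 92.5 and 70.1 CPM with vehicle and 61.8 and 90.1 with the agent in normal serum, which overlap. As a share of reads outside insulin the family stood higher with each agent in normal serum: 0.559% and 0.574% against 0.516% and 0.514% for A485, and 0.523% in both libraries against 0.443% and 0.439% for nifuroxazide. In maternal serum it was 0.589% and 0.601% against 0.546% and 0.538% for A485, and 0.535% and 0.528% against 0.481% and 0.503% for nifuroxazide. In normal serum the insulin genes took 61.3% and 59.9% of reads with vehicle and 48.1% and 49.6% with A485, and 47.7% and 49.1% with vehicle and 37.9% and 38.5% with nifuroxazide; their part in the result was not tested. Scaled by TMM, the trimmed mean of M-values that sets library sizes in edgeR, the member medians in normal serum were -0.05 and 0.10. The A485 median ran from -0.05 to 0.06 across the other settings, and that of all genes from -0.02 to 0.08. The share sums reads whereas the median counts each member alike, and the part of scaling was not tested.

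**Figure D5:**
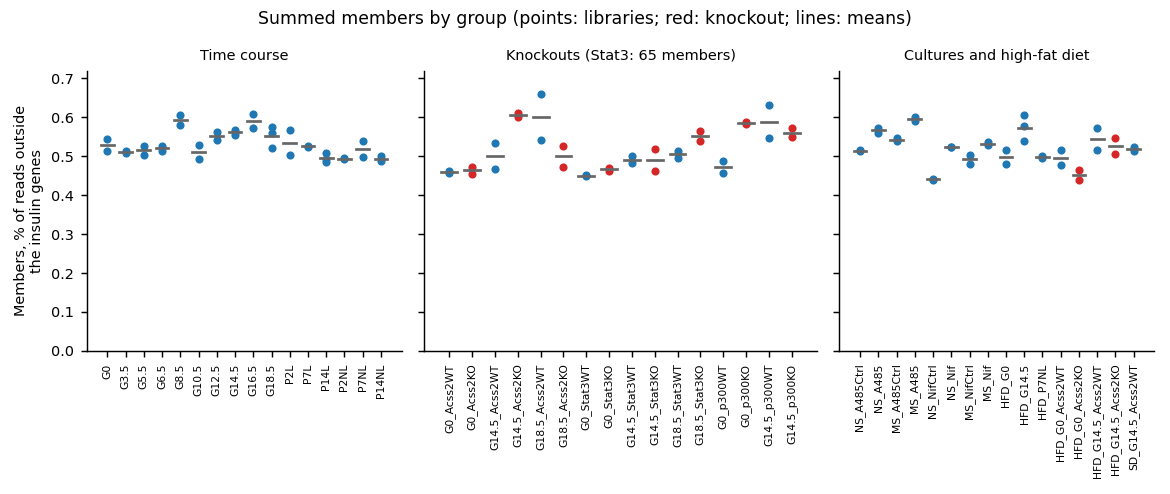
Summed reads of the members as a percentage of reads outside Ins1 and Ins2, by group. Points are libraries, red points are knockout libraries, lines are means and the axis starts at 0; values range from 0.439% to 0.661%, the highest in G18.5_Acss2WT replicate 2.

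Genes that work with the mitochondrial ribosome were followed in lists at G14.5 against G0, where 10.1% of all genes were called; each list had 0 to 2 genes called, from which nothing is read about the list. Of 6 tested ribosomal proteins with other symbols, Chchd1 of the small subunit rose (0.53 ± 0.16), and Dap3 and Ptcd3 had -0.08 ± 0.16 and -0.47 ± 0.23. None of 15 translation factors passed the edgeR test, whose calls alone were tabulated for these lists. Of the 15, 2 had an unadjusted p under 0.05, against 23.5% of all genes, and the median of the list was -0.17. Of 18 genes of assembly and rRNA modification, Fastkd2, an RNA-binding assembly factor, rose (0.92 ± 0.26) and Eral1, a chaperone of the small-subunit rRNA, fell (-0.84 ± 0.23). Of 9 genes of mitochondrial DNA and transcription, Polrmt, the mitochondrial RNA polymerase, fell (-1.05 ± 0.33). Of 17 mitochondrial aminoacyl-tRNA synthetases, Vars2 fell (-1.17 ± 0.27). Of 20 genes of protein import, Timm17b (0.60 ± 0.17) and Timm8b (0.43 ± 0.13) rose. Of 9 regulators of mitochondrial biogenesis, Gabpa, a subunit of GABP, rose (1.00 ± 0.25), as did Myc (2.75 ± 0.62), whereas Nrf1 had 0.42 ± 0.22 (adjusted p = 0.259, edgeR). In the same comparison α-cell markers summed to 1596 and 3161 CPM at G0 and 968 to 1572 at G14.5, and cell cycle genes to 38.4 and 129 CPM against 95.3 to 111; their part in the results was not tested.

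Some members share sequence with other genes. On the GENCODE annotation of GRCm38, 45 of the 76 members share no exonic base with another gene, 18 share over 10% and 3 share over 50%: Mrpl53 (chr6:83109040-83109939, 88.0%), Mrps34 (chr17:24895116-24897502, 77.8%) and Mrps25 (chr6:92169525-92184033, 69.8%). The strand setting of the counting is unknown here, so reads of such pairs cannot be told apart. Mrpl17 (chr7:105803206-105811099, minus strand), Mrpl42 (chr10:95480805-95501940, minus strand), Mrps33 (chr6:39801804-39810988, minus strand), Mrps12 (chr7:28739641-28741820, minus strand) and Mrps14 (chr1:160195215-160202170, plus strand) share none. Of the others that rose at G14.5, Mrpl32 shares none. Mrpl18 (10.1%), Mrpl44 (7.66%) and Mrpl36 (2.58%) share exonic bases with a gene on the opposite strand, so their values carry that uncertainty. Processed pseudogenes carry the names of Mrpl23, Mrpl48 and Mrps36, and the values of these 3 members are uncertain to that extent.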

How the data were processed

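Single β cells were sequenced with Smart-seq3xpress, and the authors deposited raw read counts per gene and cell with gene lengths. The submitters' processing notes list featureCounts 2.0.1, Trimmomatic 0.39 and Cell Ranger 3.1.0 and the build GRCm38/mm10. Aligner, annotation and strand setting were not named there. The series' 10x samples were not analysed here. The authors also deposited normalized values, a score of reads per length scaled to a common sum per cell without the insulin genes. In the culture tables the sums vary, so a further step of unknown kind was applied. Those of the Stat3 and p300 sets were not used here.

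Counts were summed per group and replicate and each table was fitted separately with edgeR 4.0.16 (R 4.3.3; TMM, filterByExpr, quasi-likelihood test), p-values adjusted by Benjamini-Hochberg over all genes tested, and called under 0.05. CPM and RPKM use TMM library sizes, except for the summed CPM of markers and cell cycle genes, which use the total reads of the library. The statistics were tested on simulated data. Alternatives were DESeq2 1.42.0, limma 3.58.1 on log2 of the deposited score (pseudocount 0.1 or 1, mean at least 1), no filter (at least 1 read), the insulin genes or cells with over 5% other hormone reads left out, a replicate block, and each of 100 libraries left out. These left-out fits keep the gene set and trended dispersions of the full fit; where 1 library remains in a group, it is assumed to vary like the other groups. Python 3.11.15, pandas 2.3.3 and matplotlib 3.10.9 made tables and figures.

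Named genes were, at G14.5 against G0, up to 8 called members in each direction, in other comparisons the 5 called with the largest change (mean of at least 10 CPM), the 5 highest and 5 lowest per length, a set of members with known roles, the targeted genes and the called genes of the lists; other names were chosen after their values were seen. Members and lists were chosen with earlier results of these data known. Where groups are said not to overlap, or libraries to lie above or below another group, the share of all genes that do so was not counted. Nothing is read from such a separation alone. Replicate libraries differed well beyond counting noise. The submitters' descriptions call replicates biological but do not tie each to 1 mouse. The p-values measure the spread between these libraries, part of which may be technical.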

Additional observations from a re-analysis of the deposited data

How the results depend on the processing

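No called value changed direction under another setting; medians near 0, such as that of A485 in normal serum, did. Of 71 called values of single members, 45 kept their call in every other setting, 11 in every fit without 1 library and 9 in both. Counts of members called moved as follows. Without the filter on low counts they were 3 (G14.5, Acss2KO against Acss2WT), 6 (G18.5), 1 (Stat3WT response), 8 (p300WT response), 4 (G0, p300KO against p300WT), 2 (difference in p300 response), 2 (HFD response), 1 (A485 in normal serum), 2 (nifuroxazide in normal serum) and 18 (Acss2KO response), and 2 for the p300KO response, 1 for the HFD Acss2WT response, 1 at G3.5, 1 at G6.5 and 2 at P14L. With DESeq2 they were 4, 5, 1, 9, 4, 2, 2, 1, 5 and 15 in the same order, and 1 each for high-fat against standard diet and for Acss2KO at G0 on high-fat diet. DESeq2 also called 2 for the p300KO response, 2 for the HFD Acss2WT response, 1 at G3.5, 2 at G5.5, 5 at P2L and 4 at P14L, and 20 over the time course. With limma, at either pseudocount, they were 5 (HFD response), 1 (A485 in maternal serum), 2 (nifuroxazide in normal serum), 1 at G3.5, 2 at G5.5 and 2 at P14L. Leaving out the insulin genes gave 2 at P14L. Leaving out cells with other hormones gave 0 at P14NL. Over all genes the calls moved too. The time course had 2676 of 15373 genes called in the main fit. It had 4622 of 13867 with DESeq2 and 4978 of 18165 without the filter. Shares of all genes are not set beside the other counts of this paragraph, so nothing is read from them about the family. The cause was not tested.

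Without 1 library, the counts ranged from 9 to 15 over the time course, 3 to 7 at G14.5, 1 to 3 at G8.5, 2 to 5 at G16.5, 0 to 2 at G10.5 and P14L, 1 to 3 at G18.5, 1 to 1 at G12.5, 0 to 1 at G6.5, P2L, P7L and P2NL, and 0 to 0 at P14NL. They ranged from 0 to 1 for the Acss2WT and HFD responses, 1 to 2 for Acss2KO, 0 to 4 for p300WT, 0 to 0 for p300KO, 0 to 2 for Acss2KO against Acss2WT at G18.5 and 0 to 2 for p300KO against p300WT at G0. Correlations of the deviations of same-numbered replicates, over groups of 2, ran from -0.15 to 0.19. They passed 0.1 for 5 of 78 pairs of groups in the time course and 3 of 15 in the Acss2 set. The main fit therefore did not pair libraries by number. These correlations cannot show whether some groups share a batch, which was not tested. With the replicate block, 11 members were called over the time course, 5 at G14.5, 7 at G16.5, 3 at G12.5 and 0 for the HFD response.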
